A study of Mus musculus with 8 samples.

Results

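RNA levels of 10 genes of amino acid uptake and serine metabolism were measured in cultures and transplanted tumours of the mouse colorectal carcinoma line CT26. The set was chosen by gene symbol and holds 6 plasma membrane carrier genes (Slc7a11, Slc3a2, Slc7a5, Slc7a1, Slc1a5 and Slc38a2) and 4 enzyme genes of serine synthesis and mitochondrial one-carbon metabolism (Phgdh, Psat1, Shmt2 and Mthfd2). Each symbol matched 1 of the 56953 gene identifiers in the count table, and all 10 passed the filter on low counts in every comparison.

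CT26 was studied as transplanted tumours and as cell cultures, in 4 groups of 2 libraries each. One group of tumours was given normal saline and the other was given mLJZD, a drug whose abbreviation the labels do not expand. The cultures were kept for 48 hours with 10% control serum or with 10% serum containing mLJZD. The labels name no genetic change of the line in any group. The host strain, its age and immune state, the site of the transplants, and the dose and length of treatment of the tumours are not stated there. Nothing in the labels states that the 2 libraries of a group are from different animals or culture dishes, so the p-values below measure a spread that may be technical. For 1 gene, 2 libraries against 2 give an exact permutation p of 0.333 at the lowest, so tests rest on the model fitted across all genes.

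Library totals ran from 16594912 to 29363861 counts. The replicates of each group differed beyond sampling noise, with a chi-square per degree of freedom of 2.69 to 11.6 over genes. Of 11 epithelial carcinoma markers, 8 had a count in either culture group, and the defining genes Epcam and Cldn4 stood at 0 in both, so the epithelial label rests on other markers of the list there. Tumour libraries also held RNA of other cells. The summed level of 8 skeletal muscle markers was 2380 to 2407 CPM (counts scaled to the library total) in saline tumours and 422 to 426 CPM in mLJZD tumours, and that of 6 B and plasma cell markers was 26.0 to 27.0 and 323 to 356 CPM. The summed levels of 8 macrophage markers were 1486 to 1500 and 1252 to 1309 CPM in the same groups. In cultures those sums were at most 2.39 CPM for muscle, 0.512 CPM for B and plasma cells and 10.6 CPM for macrophages.

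Cells take up most amino acids through carriers of the solute carrier families. Slc7a11 encodes the light chain of system xc-, which imports cystine in exchange for glutamate, and Slc7a5 encodes the light chain of LAT1, which imports leucine and other large neutral amino acids. Both light chains need the heavy chain that Slc3a2 encodes to reach the plasma membrane. Slc7a1 encodes a carrier of arginine and lysine, Slc1a5 one of glutamine and other small neutral amino acids, and Slc38a2 the sodium-coupled carrier SNAT2. Phgdh encodes the first enzyme of serine synthesis from a glycolytic intermediate and Psat1 the next one. Shmt2 encodes the mitochondrial enzyme that splits serine into glycine and a one-carbon unit carried by folate, and Mthfd2 the mitochondrial enzyme that oxidises that unit. Many of these genes are known targets of ATF4, a transcription factor made when amino acids are short or the endoplasmic reticulum is stressed.

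ATF4 binds DNA together with C/EBP proteins at elements with the core TGATGNAA, and promoter windows of the members were searched for this motif. RefSeq windows of build GRCm38.p6, from 250 bases before to 50 bases after a transcript start, were found for 8 members in 10 windows, and Slc7a5 and Slc1a5 are named only. The windows of Slc7a11 (chr3:50443564-50443863, minus strand), Slc3a2 (chr19:8713848-8714147, minus strand) and Mthfd2 (chr6:83317555-83317854, minus strand) are shown 5′ to 3′, with the matches to the core in capitals. The first is shown because it held the matches found, and the other two because these genes were called higher in mLJZD tumours and lower in mLJZD cultures.
Slc7a11: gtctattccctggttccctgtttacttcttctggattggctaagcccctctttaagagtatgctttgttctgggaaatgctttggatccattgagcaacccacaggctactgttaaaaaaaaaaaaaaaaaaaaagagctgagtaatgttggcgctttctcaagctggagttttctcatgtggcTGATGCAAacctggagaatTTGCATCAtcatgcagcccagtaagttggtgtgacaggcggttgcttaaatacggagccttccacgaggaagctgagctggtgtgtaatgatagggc
Slc3a2: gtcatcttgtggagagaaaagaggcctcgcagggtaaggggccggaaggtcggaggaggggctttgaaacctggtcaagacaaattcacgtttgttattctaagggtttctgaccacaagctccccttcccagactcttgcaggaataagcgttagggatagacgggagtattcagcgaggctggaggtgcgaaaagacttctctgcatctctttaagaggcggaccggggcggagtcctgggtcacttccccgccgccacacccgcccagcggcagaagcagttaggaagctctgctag
Mthfd2: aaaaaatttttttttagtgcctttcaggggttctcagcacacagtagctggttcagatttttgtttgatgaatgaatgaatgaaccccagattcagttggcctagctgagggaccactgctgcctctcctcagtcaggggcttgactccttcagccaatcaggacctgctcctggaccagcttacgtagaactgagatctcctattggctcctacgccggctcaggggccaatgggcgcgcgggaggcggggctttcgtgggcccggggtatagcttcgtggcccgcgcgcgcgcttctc
The Slc7a11 window held 2 matches, TGATGCAA at window position 185 on the printed strand and TTGCATCA at position 204 on the other. No other member window held the letters TGATGNAA on either strand, and 1304 of 32851 RefSeq windows of the same length did (4.0%). The antioxidant response element core TGACNNNGC, known as a binding site of NRF2, was matched once each in windows of Slc7a1, Slc38a2 and Phgdh and in 12.4% of all windows. The E-box CACGTG matched no member window and 7.2% of all windows. No match overlapped another, and a match is a run of letters that does not show binding. Sequence outside these windows was not searched, so the absence of a match covers the windows alone.

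**Figure D1:**
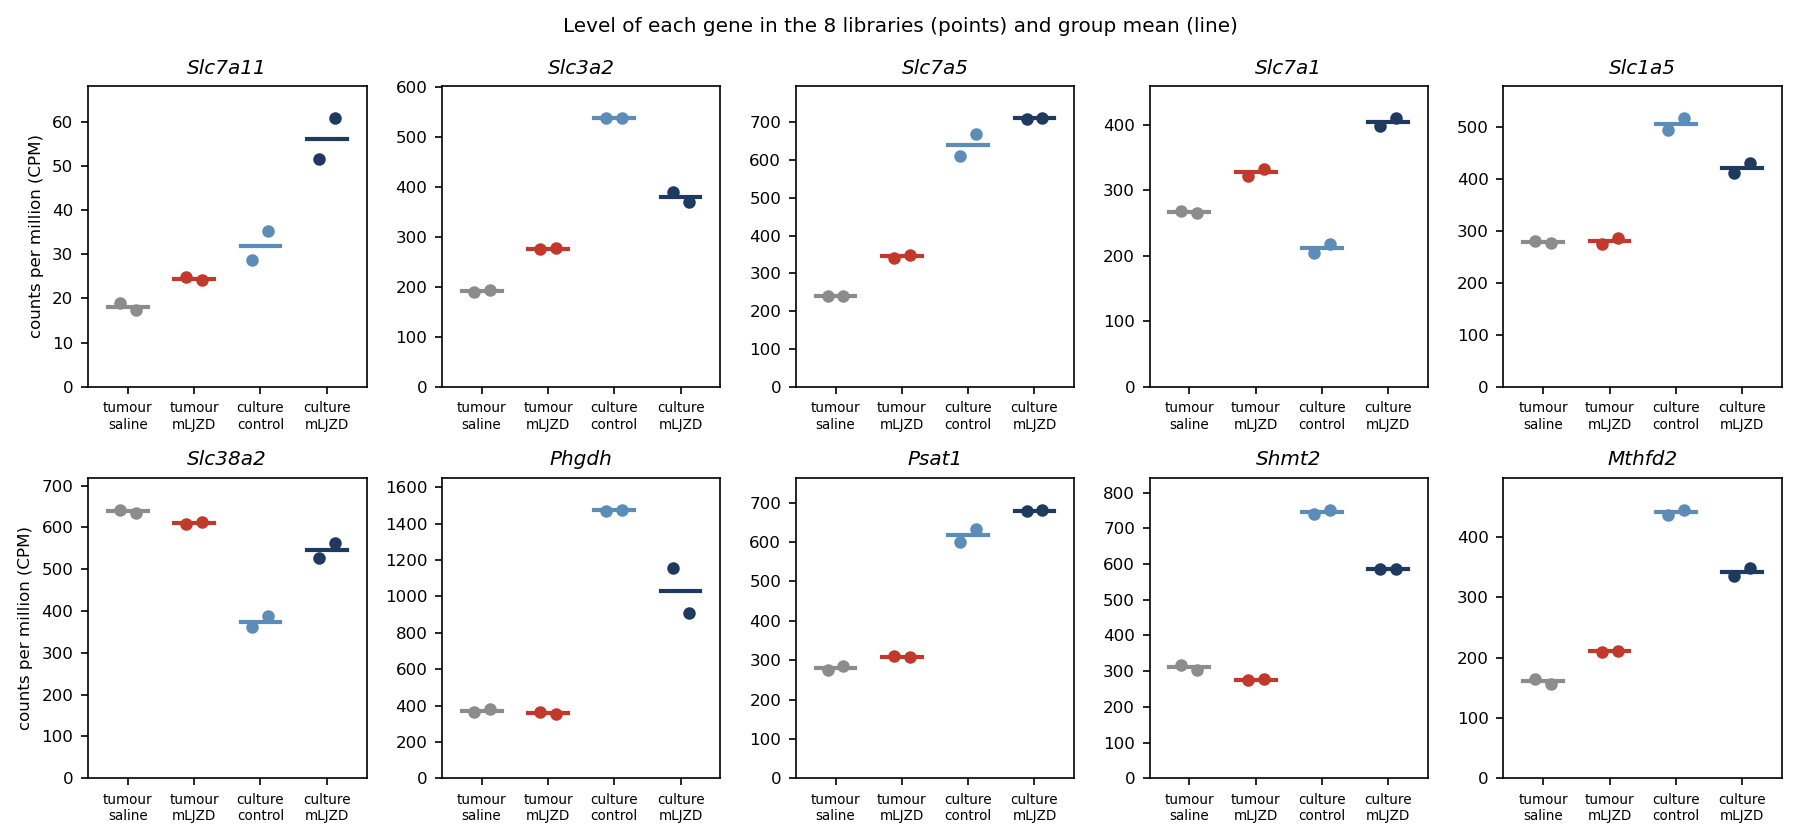
Level of each of the 10 genes in CPM (vertical axes, linear and starting at 0) in saline tumours, mLJZD tumours, control-serum cultures and mLJZD-serum cultures; points are libraries and lines are group means (n = 2). Slc38a2 is highest in the tumours and Slc7a1 stands lowest in control cultures, while the other 8 genes are higher in both culture groups than in both tumour groups.

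Per transcript length, the order of the members was much the same in every group at its ends. Phgdh ranked first in all 4 groups, with a level of 482 ± 14.9 (SD, n = 2; counts per transcript base, scaled to the same sum in every library) in saline tumours and 1642 ± 41.2 in control cultures, and Slc7a11 ranked last in all 4, with 4.83 ± 0.283 and 7.33 ± 1.21. Slc3a2 and Slc7a5, which encode the partner chains of LAT1, stood close together on this scale. Their levels per length were 167 ± 1.38 and 168 ± 0.565 in saline tumours and 233 ± 4.37 and 232 ± 7.42 in mLJZD tumours. In mLJZD cultures they parted to 348 ± 16.8 for Slc3a2 and 517 ± 5.49 for Slc7a5.

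In tumours, 6 of the 10 members were called higher under mLJZD and 1 lower at an edgeR adjusted p under 0.05, against 31.4% of all 15417 genes tested (15.4% called higher and 16% lower). The median log2 fold change of the members was 0.25, beside 0.00 over all genes tested. The CPM of the 2 groups did not overlap for 8 members, beside 64.5% of genes. The rise was seen in 4 carrier genes, among them both light chains and their common heavy chain, and in the enzyme genes Mthfd2 and Psat1. The glutamine carrier gene Slc1a5, the carrier gene Slc38a2 and the first enzyme gene of serine synthesis, Phgdh, were not called. Bulk RNA cannot tell apart fewer cells of a type from less RNA per cell.

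Markers of several cell types moved with mLJZD in tumours, the carcinoma list among them. Its summed level was 294 to 299 CPM with saline and 182.9 to 183.3 CPM with mLJZD. In cultures the sum was 176 to 188 CPM with control serum and 239 to 240 CPM with mLJZD serum. Saline tumours thus stood above the CT26 cultures, so the sum is not read as a share of CT26 cells. In tumours, 3 of the 4 tested genes of the list, the keratin genes Krt8, Krt18 and Krt20, were called lower. The muscle list had 8 of 8 genes lower and the B and plasma cell list 4 of 5 higher. The neutrophil sum went from 18.4 to 18.7 CPM with saline to 32.9 to 36.5 CPM with mLJZD (6 of 7 genes higher), and the erythroid sum from 18.2 to 22.2 CPM to 43.7 to 47.0 CPM (5 of 5 higher). Of the other lists, fibroblast had 3 of 6 genes higher, and macrophage 1 of 8 higher and 3 lower. The fibroblast sum was also 1848 to 1984.5 CPM in control cultures and 1846 to 2180 CPM in mLJZD cultures. That list is therefore not read as host fibroblasts alone. T cell had 1 of 6 lower, and no gene of the endothelial (5 tested) or adipocyte (1 tested) list was called. Over all genes tested, 31.4% were called. The part of these shifts in the tumour results was not tested.

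Slc3a2 had 190.3 and 194 CPM in the saline tumours and 276 and 277 CPM in the mLJZD tumours. Both treated libraries lay above both controls, a log2 fold change of 0.56 (edgeR adjusted p = 2.12e-07, SE 0.05). Slc7a5 stood at 240.3 and 240.4 CPM with saline and at 342 and 349 CPM with mLJZD. The groups were again apart by more than the spread of either, at a log2 fold change of 0.56 (edgeR adjusted p = 1.15e-07, SE 0.05), the same to 2 decimals as for its heavy chain partner. The cystine carrier gene Slc7a11 was the lowest member, at 18.9 and 17.5 CPM with saline and 24.9 and 24.2 CPM with mLJZD, from 346 to 456 counts a library. Its groups did not overlap, and its log2 fold change was 0.46 (edgeR adjusted p = 0.00154, SE 0.10), a call that was lost without mLJZD replicate 1 (adjusted p = 0.0875) or 2 (adjusted p = 0.0573). The arginine carrier gene Slc7a1 had 268 and 266 CPM with saline and 322 and 332 CPM with mLJZD. It rose by a log2 fold change of 0.33 (edgeR adjusted p = 4.68e-05, SE 0.05), with both treated libraries higher.

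The other pair of carrier genes stayed near their control levels in tumours. Slc1a5 had 280.0 and 276 CPM with saline and 274 and 287 CPM with mLJZD. Its groups overlapped, and the log2 fold change of 0.04 did not pass (edgeR adjusted p = 0.556, SE 0.05). Slc38a2 had 642 and 634 CPM with saline and 609 and 612 CPM with mLJZD, so both treated libraries were slightly lower in CPM. Its log2 fold change was -0.03 after TMM scaling (edgeR adjusted p = 0.581, SE 0.04).

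The enzyme genes moved unequally in tumours. Mthfd2 had 165 and 156 CPM with saline and 209.9 and 211 CPM with mLJZD. Both mLJZD libraries were higher, at a log2 fold change of 0.42 (edgeR adjusted p = 1.06e-05, SE 0.05). Shmt2, whose enzyme makes the one-carbon unit that MTHFD2 then uses, had 316 and 304 CPM with saline and 274 and 277 CPM with mLJZD. Both treated libraries were lower, and the log2 fold change of -0.14 passed narrowly (edgeR adjusted p = 0.0373, SE 0.05). That call was lost when any of the 4 libraries was left out (adjusted p from 0.117 to 0.349) and with the length and GC trend described below removed (adjusted p = 0.0623). Psat1 had 274 and 285 CPM with saline and 310.0 and 308 CPM with mLJZD, a small rise in both libraries, with a log2 fold change of 0.18 (edgeR adjusted p = 0.0100, SE 0.05). It was lost without saline replicate 1 (adjusted p = 0.212) and without mLJZD replicate 1 (adjusted p = 0.115) or 2 (adjusted p = 0.0759). Phgdh had 363 and 382 CPM with saline and 363 and 355 CPM with mLJZD. These groups overlapped, at a log2 fold change of -0.02 (edgeR adjusted p = 0.802, SE 0.05).

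**Figure D2:**
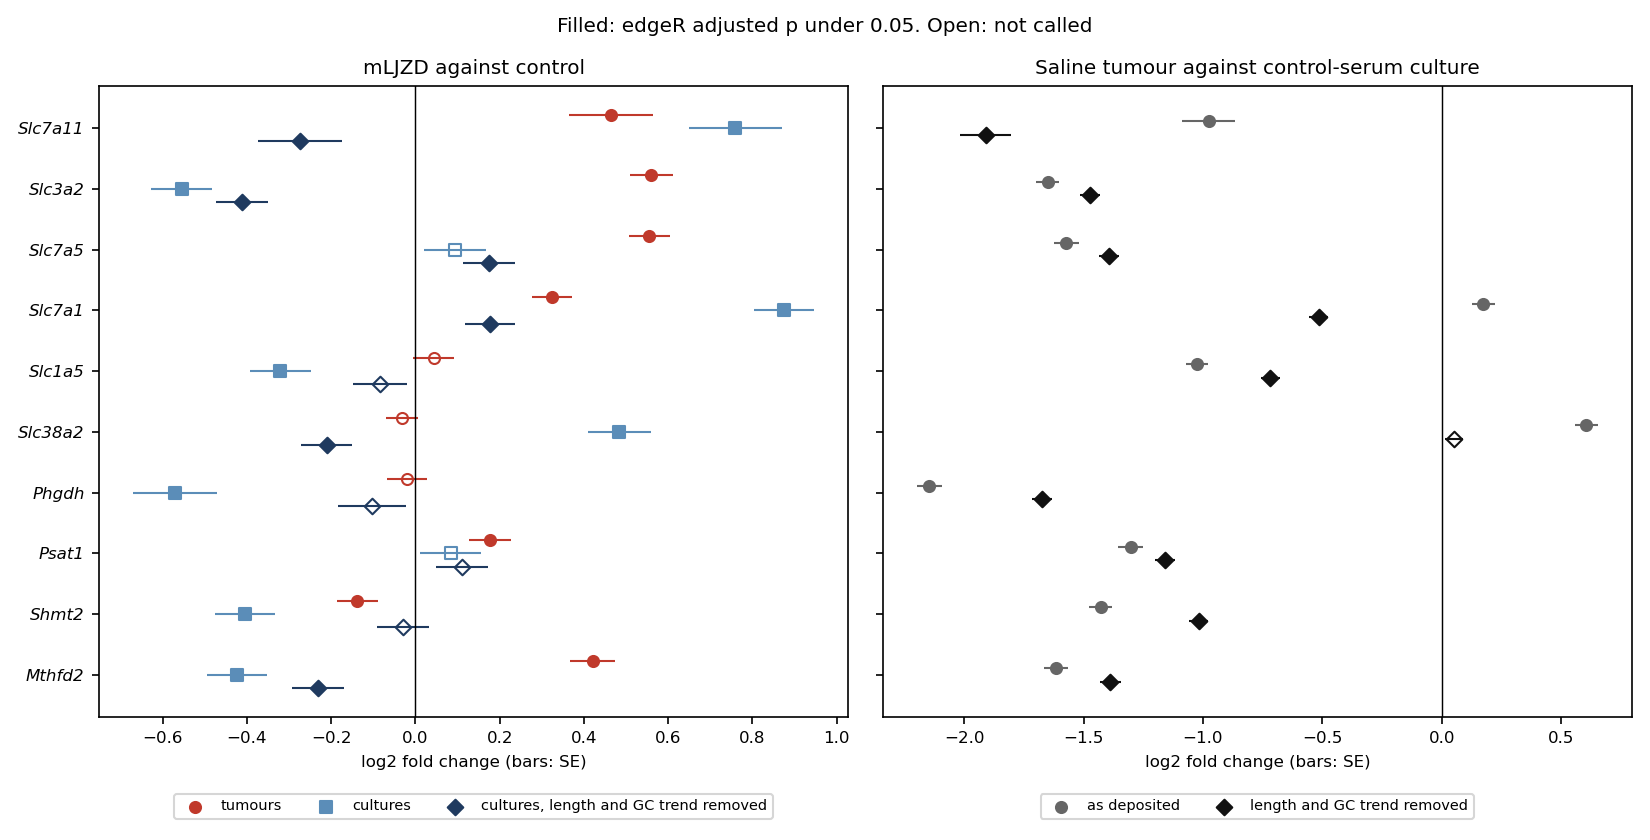
Log2 fold change of each member with its SE (horizontal axes): on the left mLJZD against control in tumours, in cultures, and in cultures with the length and GC trend removed; on the right saline tumours against control-serum cultures, as deposited and with that trend removed. Filled symbols passed an edgeR adjusted p under 0.05; the tumour values of Slc3a2 (0.56) and Mthfd2 (0.42) lie right of 0 and their culture values (-0.55 and -0.42) left of it.

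In cultures the log2 fold changes under mLJZD serum followed transcript length across the whole table. Their median was -0.76 over 454 protein-coding genes with a longest transcript under 1000 bases and 1.00 over 632 such genes of more than 8000 bases. In tumours the same medians were 0.09 and -0.08. Between saline tumours and control cultures, compared further below, they were -0.61 and 1.23. A smooth trend with transcript length and GC content was therefore fitted in each library and removed. That left culture medians of -0.09 and 0.04, and each culture value is given both ways. It left -0.11 and 0.25 between saline tumours and control cultures, so part of the trend stayed there. The origin of the trend was not tested.

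**Figure D3:**
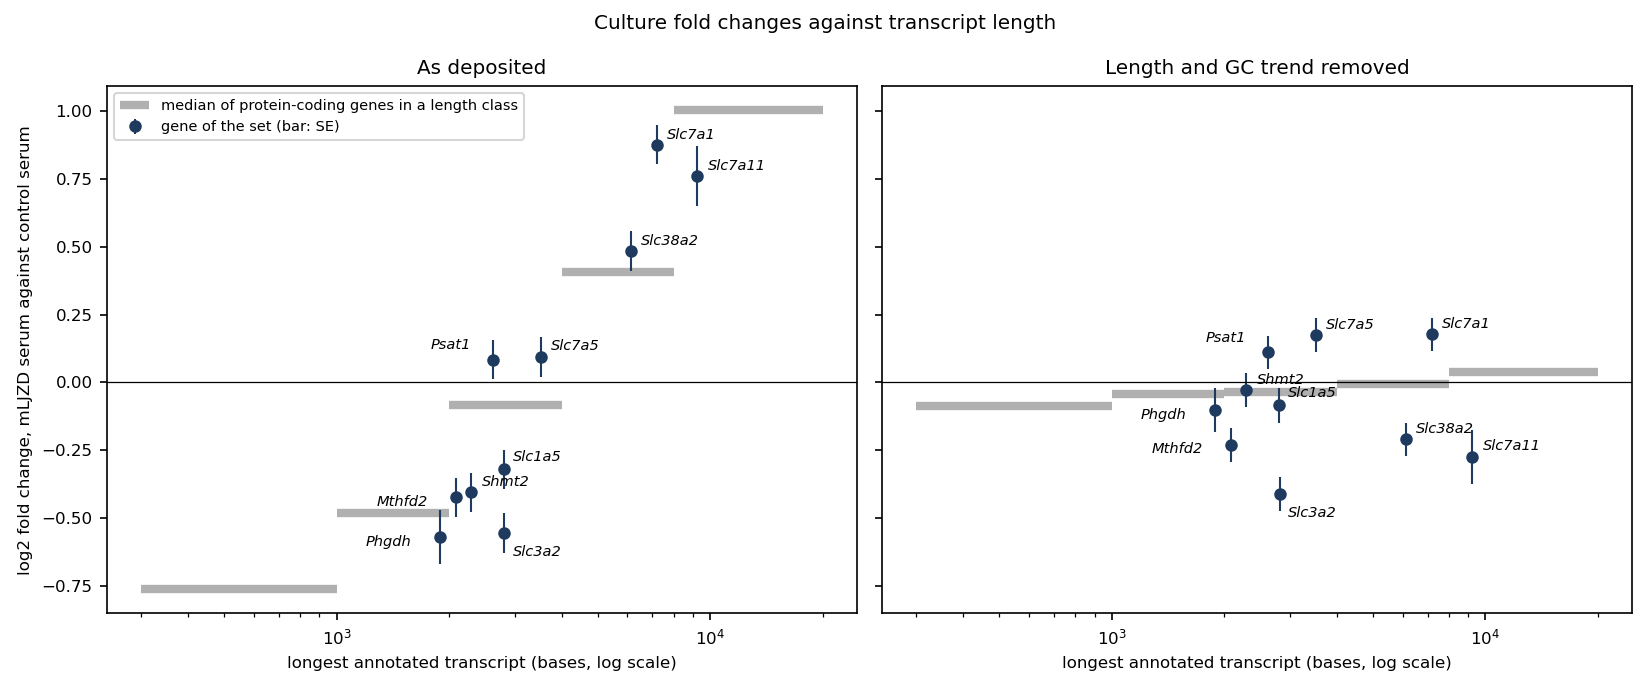
Log2 fold change under mLJZD serum in cultures (vertical axes) against the length of the longest transcript in bases (horizontal log axes), as deposited and with the trend removed; grey bars are medians of protein-coding genes in 5 length classes, and named points are the 10 members with their SE. As deposited, the 3 longest members, Slc7a11, Slc7a1 and Slc38a2, lie above 0, and after removal Slc7a11 (-0.27) and Slc38a2 (-0.21) lie below it.

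On the counts as deposited, 3 of the 10 members were called higher and 5 lower in mLJZD cultures, against 55.4% of all 13299 genes tested (28.8% higher and 26.6% lower). The 3 called higher, Slc7a11, Slc7a1 and Slc38a2, have the longest transcripts of the set, at 9223, 7179 and 6116 bases, and the 5 called lower have 1893 to 2813 bases. The CPM of the groups did not overlap for any of the 10, beside 77.4% of genes. With the trend removed, 2 members were called higher and 4 lower, against 36.6% of genes (17.8% higher and 18.9% lower). Slc3a2, Mthfd2 and Slc7a1 were called in the same direction both ways, and Slc3a2 was the single member whose culture call held under every alternative tried.

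Slc3a2 had 538 CPM in both control cultures and 391 and 371 CPM with mLJZD serum. Both treated libraries were lower, by a log2 fold change of -0.55 (edgeR adjusted p = 1.64e-05, SE 0.07) and of -0.41 with the trend removed (edgeR adjusted p = 0.000251, SE 0.06). Slc7a5 had 611 and 667 CPM with control serum and 709 and 710.2 CPM with mLJZD serum. The treated libraries were higher in CPM, but its log2 fold change of 0.09 did not pass (edgeR adjusted p = 0.304, SE 0.07), was -0.02 with upper-quartile scaling, and passed narrowly at 0.17 with the trend removed (edgeR adjusted p = 0.0422, SE 0.06). The fitted changes of the 2 LAT1 genes had opposite signs in cultures under every alternative tried except upper-quartile scaling.

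Slc7a11 had 28.8 and 35.2 CPM with control serum and 51.6 and 60.8 CPM with mLJZD serum. The groups did not overlap in CPM, yet its log2 fold change was 0.76 as deposited (edgeR adjusted p = 4.48e-05, SE 0.11) and -0.27 with the trend removed (edgeR adjusted p = 0.0458, SE 0.10). Slc38a2 likewise had 363 and 387 CPM against 527 and 563 CPM, higher in both treated libraries. It changed by 0.48 on the log2 scale as deposited (edgeR adjusted p = 7.11e-05, SE 0.07) and by -0.21 with the trend removed (edgeR adjusted p = 0.0169, SE 0.06). The sign of both genes in cultures therefore depends on that removal. Slc7a1 stood at 205 and 218 CPM with control serum and at 398 and 409.9 CPM with mLJZD serum. It was higher both ways, by a log2 fold change of 0.88 (edgeR adjusted p = 2.27e-07, SE 0.07) and of 0.18 with the trend removed (edgeR adjusted p = 0.0359, SE 0.06). Slc1a5 had 495 and 517 CPM against 412 and 431 CPM, lower in both treated libraries. Its log2 fold change of -0.32 (edgeR adjusted p = 0.00165, SE 0.07) became -0.08 with the trend removed, which did not pass (edgeR adjusted p = 0.344, SE 0.07).

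Among the enzyme genes in cultures, Mthfd2 fell both ways. It had 436 and 445 CPM with control serum and 335 and 348 CPM with mLJZD serum, both treated libraries lower. The log2 fold change was -0.42 (edgeR adjusted p = 0.000157, SE 0.07) and -0.23 with the trend removed (edgeR adjusted p = 0.0108, SE 0.06). Phgdh had 1472 and 1477 CPM with control serum, and its mLJZD libraries, at 1158 and 907 CPM, were lower but stood far apart. Its log2 fold change was -0.57 (edgeR adjusted p = 0.000202, SE 0.10), and -0.10 with the trend removed (edgeR adjusted p = 0.353, SE 0.08). Shmt2 had 741 and 752 CPM against 587 and 586 CPM, lower in both treated libraries. Its log2 fold change of -0.40 (edgeR adjusted p = 0.000244, SE 0.07) became -0.03 with the trend removed (edgeR adjusted p = 0.752, SE 0.06). Psat1 had 600.2 and 633 CPM against 677 and 682 CPM and was not called either way, at 0.08 (edgeR adjusted p = 0.353, SE 0.07) and 0.11 with the trend removed (edgeR adjusted p = 0.186, SE 0.06).

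With the trend removed, 5 of the 6 culture calls did not hold when 1 library was left out. Leaving out 1 culture library ended the call of Slc7a11 without control replicate 2 (adjusted p = 0.372) or mLJZD replicate 1 (adjusted p = 0.207). Slc7a5 lost its call without control replicate 1 (adjusted p = 0.234) or 2 (adjusted p = 0.116) or mLJZD replicate 2 (adjusted p = 0.0854), and Slc7a1 without the same libraries (adjusted p = 0.139, 0.186 and 0.0809). Slc38a2 lost its call without control replicate 1 (adjusted p = 0.0762) or 2 (adjusted p = 0.108), as did Mthfd2 (adjusted p = 0.0514 and 0.0758). Scaling the trend-removed libraries at the median gene also ended the calls of Slc7a11, Slc38a2 and Mthfd2 (adjusted p = 0.146, 0.140 and 0.0878). Further calls were lost under the alternatives run on top of the trend removal and are not listed here.

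The effect of mLJZD in tumours was then compared with its effect in cultures as an interaction over all 8 libraries, positive where the log2 fold change was higher in tumours. Of the 10 members, 6 had a positive and 2 a negative interaction, against 44.4% of 16090 genes (23.8% positive and 20.5% negative). With the trend removed, 6 were positive and 0 negative, against 32.8% of genes (17.6% and 15.3%). Slc3a2, higher in mLJZD tumours and lower in mLJZD cultures, had an interaction of 1.20 (edgeR adjusted p = 4.31e-09, SE 0.08) and of 1.01 with the trend removed (edgeR adjusted p = 4.00e-08, SE 0.07). Mthfd2 showed the same pair of directions, at 0.93 (edgeR adjusted p = 6.30e-08, SE 0.08) and 0.67 (edgeR adjusted p = 3.21e-06, SE 0.07). Slc7a5 had 0.55 (edgeR adjusted p = 1.56e-05, SE 0.08) and 0.42 (edgeR adjusted p = 0.000121, SE 0.06). These 3 calls held under every alternative tried.

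For 6 of the other 7 members the interaction call or its sign changed with the removal of the trend. Slc7a11 had -0.21, not called (edgeR adjusted p = 0.287, SE 0.15), and 0.76 with the trend removed (edgeR adjusted p = 0.000578, SE 0.14). Slc7a1 turned from -0.47 (edgeR adjusted p = 8.37e-05, SE 0.08) to 0.21 (edgeR adjusted p = 0.0232, SE 0.07), and Slc38a2 from -0.43 (edgeR adjusted p = 0.000166, SE 0.08) to 0.19 (edgeR adjusted p = 0.0288, SE 0.06). The trend-removed calls of Slc7a11, Slc7a1 and Slc38a2 did not all hold under the alternatives run on top of that removal. Phgdh had 0.64 (edgeR adjusted p = 0.000252, SE 0.12), Slc1a5 0.45 (edgeR adjusted p = 0.000102, SE 0.07) and Shmt2 0.35 (edgeR adjusted p = 0.000678, SE 0.07). None of these 3 was called with the trend removed, at 0.12 (adjusted p = 0.361), 0.18 (adjusted p = 0.0680) and -0.06 (adjusted p = 0.553). Psat1 was called neither way, at 0.18 (edgeR adjusted p = 0.0613, SE 0.07) and 0.08 (edgeR adjusted p = 0.354, SE 0.06).

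Without drug, most of the 10 genes were lower in tumours than in cultures. The saline tumours and control cultures are also the controls of the comparisons above, so the values here are not independent of those. Of the members, 8 were called lower in saline tumours than in control cultures and 2 higher, against 80.6% of 15332 genes (44.9% higher and 35.7% lower). The members' median log2 fold change was -1.37, and that of all genes was 0.15. With the trend removed 9 were called lower and 0 higher, against 77.7% of genes (43.3% higher and 34.4% lower), with medians of -1.27 and 0.12. The CPM of the groups did not overlap for any member, as for 89.5% of all genes tested. Tumour libraries held host RNA, as the marker sums above show, and the part of the host cells and of the CT26 cells in these differences cannot be told apart.

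As deposited, Phgdh showed the widest gap of the members, at 373 ± 12.9 CPM (SD, n = 2) in saline tumours and 1474 ± 3.30 CPM in control cultures. The log2 fold change was -2.15 (edgeR adjusted p = 1.25e-10, SE 0.05), or -1.67 with the trend removed (edgeR adjusted p = 5.87e-11, SE 0.04). Slc3a2 had 192 ± 2.32 and 538 ± 0.0183 CPM, a log2 fold change of -1.65 (edgeR adjusted p = 4.06e-10, SE 0.05). Mthfd2 had 161 ± 6.10 and 441 ± 6.34 CPM, a log2 fold change of -1.62 (edgeR adjusted p = 5.49e-10, SE 0.05). Slc7a5, Shmt2, Psat1, Slc1a5 and Slc7a11 were lower in tumours by log2 fold changes of -1.57, -1.43, -1.30, -1.03 and -0.98. With the trend removed these 5 stood at -1.39, -1.02, -1.16, -0.72 and -1.91, so that Slc7a11 then lay farther from 0 than Phgdh. Slc38a2 and Slc7a1 were higher in tumours as deposited. Slc38a2 stood at 638 ± 5.67 CPM in tumours and 375 ± 17.2 CPM in cultures. Its log2 fold change of 0.61 (edgeR adjusted p = 7.61e-07, SE 0.05) was 0.05 with the trend removed and then not called (edgeR adjusted p = 0.237, SE 0.04). Slc7a1 had 267 ± 1.79 and 212 ± 9.69 CPM, and its log2 fold change turned from 0.17 (edgeR adjusted p = 0.00678, SE 0.05) to -0.51 (edgeR adjusted p = 3.79e-07, SE 0.04). As deposited the call of Slc7a1 was lost without saline replicate 1 (adjusted p = 0.0640) or 2 (adjusted p = 0.0647).

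**Figure D4:**
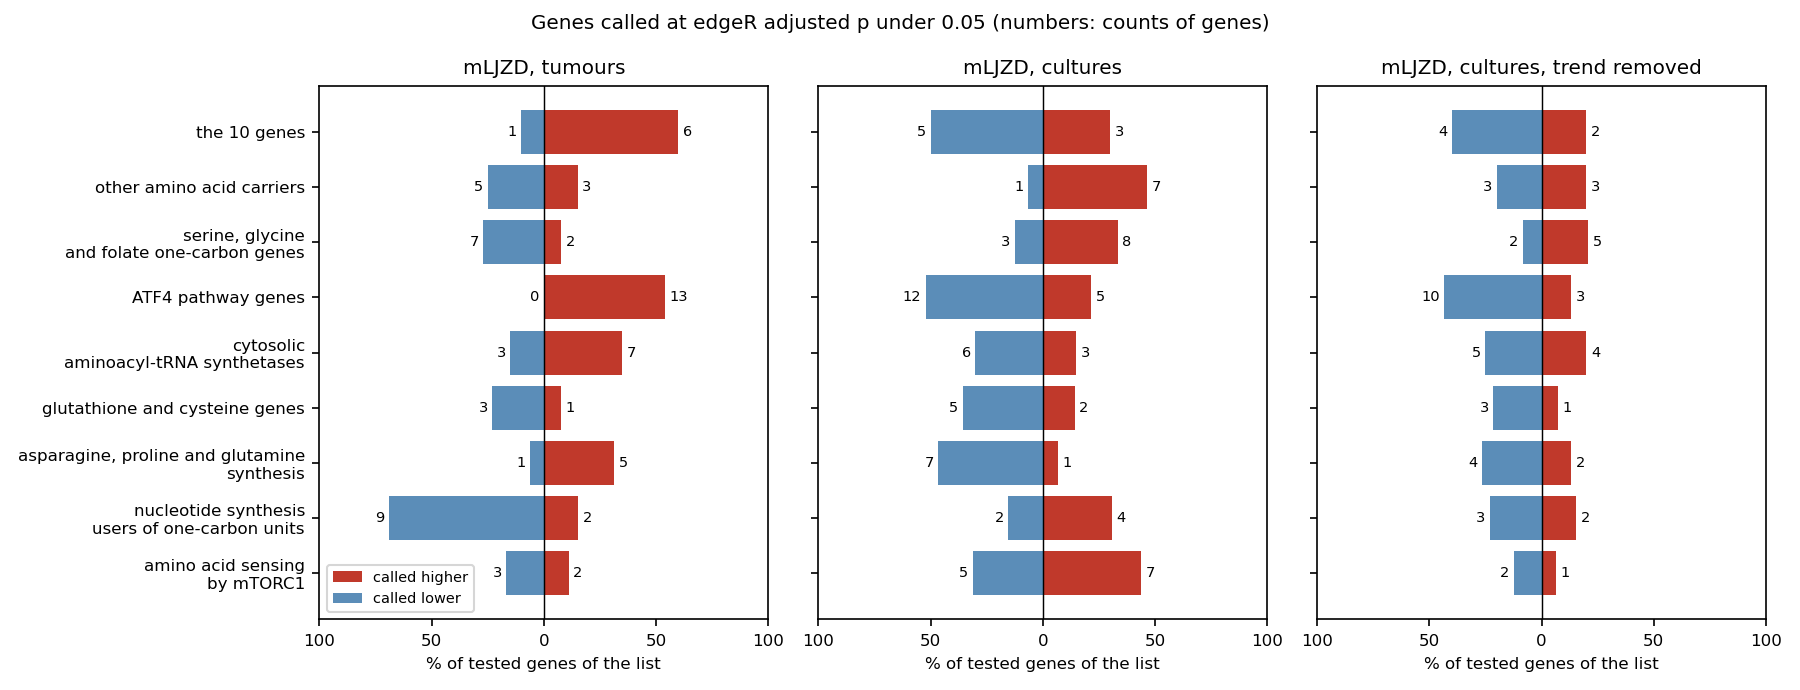
Share of tested genes (horizontal axes, % of each list, with counts at the bars) called higher (red, right of 0) and lower (blue, left of 0) under mLJZD at an edgeR adjusted p under 0.05, for the 10 members and 8 lists of related genes, in tumours, in cultures, and in cultures with the length and GC trend removed. The ATF4 list has 13 genes higher and 0 lower in tumours and 5 higher and 12 lower in cultures, or 3 and 10 with the trend removed.

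Other genes of the same pathways were followed as 8 lists. The share of a list called in either direction is given beside its counts, to be read against that of all genes tested. Over all genes tested it was 31.4% in tumours and 55.4% in cultures, or 36.6% in cultures with the trend removed. With 1 library left out, the count of all genes called fell as well. List counts from those fits are to be read beside that fall, which is given for tumours in the closing section. Of 24 tested ATF4 pathway genes, 13 (54.2%) were higher and 0 lower in mLJZD tumours, with a median log2 fold change of 0.26. Chac1, which encodes a glutathione-degrading enzyme, went from 15.2 ± 0.554 to 49.0 ± 1.37 CPM (log2 1.72, edgeR adjusted p = 5.54e-11, SE 0.08). Trib3, a pseudokinase gene induced by stress, went from 29.7 ± 1.58 to 68.4 ± 0.434 CPM (log2 1.24, edgeR adjusted p = 1.59e-10, SE 0.06). Ddit3, which encodes the transcription factor CHOP, rose by 1.08 (edgeR adjusted p = 2.53e-10, SE 0.06) and Atf3, another stress transcription factor gene, by 1.53 (edgeR adjusted p = 6.65e-07, SE 0.15). Without mLJZD replicate 1 the count was 8 higher. With the trend removed it was 13 higher and 1 lower.

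The same list had the opposite balance in cultures, with 5 of 23 tested genes higher and 12 lower (73.9% called; median -0.42, beside -0.01 over all genes tested), and 3 higher and 10 lower with the trend removed (56.5% called; median -0.24). Ddit3 went from 221 ± 3.83 to 104 ± 1.58 CPM, at a log2 fold change of -1.14 (edgeR adjusted p = 2.26e-08, SE 0.07) and of -0.70 with the trend removed (edgeR adjusted p = 1.17e-05, SE 0.07). Eif4ebp1, whose product restrains translation below mTORC1, went from 818 ± 47.3 to 428 ± 19.8 CPM, at -0.99 (edgeR adjusted p = 1.68e-07, SE 0.08) and -0.82 (edgeR adjusted p = 3.18e-06, SE 0.07). Cebpb, which encodes a C/EBP factor, had -1.13 (edgeR adjusted p = 1.16e-05, SE 0.14) and -0.24, not called, with the trend removed (adjusted p = 0.112). Eif2ak2, the gene of the double-stranded RNA-activated kinase PKR, was higher both ways, at 1.11 (edgeR adjusted p = 6.04e-08, SE 0.08) and 0.76 (edgeR adjusted p = 7.53e-06, SE 0.07). In the interaction 16 of 25 genes of the list were positive and 5 negative (84% called, against 44.4% of all genes). With the trend removed 14 were positive and 1 negative (60% called, against 32.8% of all genes).

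Besides the 4 member enzymes, 26 serine, glycine and folate one-carbon genes were tested in tumours, and 2 were higher and 7 lower (34.6% called), a share near that of all genes. Slc25a32, the mitochondrial folate carrier gene, fell from 62.2 ± 2.66 to 39.5 ± 4.40 CPM (log2 -0.62, edgeR adjusted p = 4.85e-06, SE 0.07). Gldc and Folr1, of the glycine cleavage system and folate uptake, were also lower but stood at 2.05 and 1.11 CPM or less. Only 1 of the list was called lower without mLJZD replicate 1, and 3 without replicate 2. In cultures 8 of 24 genes were higher and 3 lower (45.8% called; 1 lower without control replicate 1), and 5 and 2 with the trend removed (29.2%), below the shares of all genes. Aldh1l2, a mitochondrial folate dehydrogenase gene, went from 104 ± 6.15 to 270.5 ± 12.4 CPM, at 1.32 (edgeR adjusted p = 1.05e-08, SE 0.08) and 0.67 with the trend removed (edgeR adjusted p = 1.11e-05, SE 0.07). Psph, which encodes the last enzyme of serine synthesis, fell from 169.5 ± 10.8 to 118 ± 1.51 CPM, at -0.58 both ways (SE 0.08 and 0.07, edgeR adjusted p = 1.77e-05 and 5.38e-05).

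Of 13 genes that use one-carbon units in nucleotide synthesis or act beside them, 9 were lower and 2 higher in mLJZD tumours (84.6% called), with a median log2 fold change of -0.21. Umps, of pyrimidine synthesis, fell by 0.58 on the log2 scale (edgeR adjusted p = 6.21e-07, SE 0.06) and Tyms, the thymidylate synthase gene, by 0.40 (edgeR adjusted p = 6.13e-05, SE 0.06). The lower count was 4 without either mLJZD replicate, and the higher count was 0 without mLJZD replicate 1 and 1 without mLJZD replicate 2 or saline replicate 1. In cultures 4 were higher and 2 lower (46.2% called; 1 lower without control replicate 1 or either mLJZD replicate), and 2 and 3 with the trend removed (38.5%), and the purine synthesis gene Gart was higher both ways, at 0.58 (edgeR adjusted p = 1.52e-05, SE 0.08) and 0.57 (edgeR adjusted p = 2.76e-05, SE 0.06).

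Among 20 cytosolic aminoacyl-tRNA synthetase genes, which charge tRNAs with amino acids, 7 were higher and 3 lower in mLJZD tumours (50% called). The alanine enzyme gene Aars went from 333 ± 1.24 to 436 ± 4.28 CPM (log2 0.42, edgeR adjusted p = 1.17e-06, SE 0.04) and Yars from 58.9 ± 0.00248 to 74.9 ± 1.52 CPM (log2 0.38, edgeR adjusted p = 2.45e-05, SE 0.05). Without mLJZD replicate 1 the higher count was 2, and the lower count was 1 without any 1 of the 4 libraries. In cultures 3 were higher and 6 lower, and 4 and 5 with the trend removed (45% called both ways, below the share of all genes as deposited). Of 16 genes of asparagine, proline and glutamine synthesis, 5 were higher and 1 lower in tumours (37.5% called, near the share of all genes), among them the asparagine synthetase gene Asns, at 271 ± 14.7 and 335 ± 15.9 CPM (log2 0.34, edgeR adjusted p = 0.000114, SE 0.05). None was called higher without mLJZD replicate 1, and 2 were without replicate 2 and 3 without either saline replicate. In cultures 1 of 15 was higher and 7 lower (53.3%), and 2 and 4 with the trend removed (40%), with the branched-chain aminotransferase gene Bcat2 at -0.68 (edgeR adjusted p = 7.50e-06, SE 0.08) and -0.33 (edgeR adjusted p = 0.00335, SE 0.07).

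Of 20 other amino acid carrier genes, 3 were higher and 5 lower in tumours (40% called). The glycine carrier gene Slc6a9 rose by 0.57 (edgeR adjusted p = 6.15e-05, SE 0.08), and the glutamate carrier gene Slc1a2 went from 20.8 ± 2.33 to 6.29 ± 0.481 CPM (log2 -1.70, edgeR adjusted p = 4.40e-08, SE 0.14). In cultures 7 of 15 carriers were higher and 1 lower (53.3% called; 4 higher without control replicate 1, 0 lower without control replicate 2), and 3 and 3 with the trend removed (40%), where the taurine carrier gene Slc6a6 stood at 1.05 (edgeR adjusted p = 2.62e-07, SE 0.09) and 0.48 (edgeR adjusted p = 0.000288, SE 0.07). Of 13 glutathione and cysteine genes 1 was higher and 3 lower in tumours (30.8% called, near the share of all genes). Gpx4, whose enzyme reduces lipid peroxides, fell from 205 ± 4.68 to 168 ± 7.66 CPM (log2 -0.26, edgeR adjusted p = 0.00121, SE 0.05). In cultures 2 of 14 were higher and 5 lower (50% called; 3 lower without mLJZD replicate 1), and 1 and 3 with the trend removed (28.6%). Of 18 genes of amino acid sensing by mTORC1, 2 were higher and 3 lower in tumours (27.8% called, below the share of all genes), and the Rag GTPase gene Rraga rose from 59.7 ± 3.15 to 96.4 ± 0.254 CPM (log2 0.72, edgeR adjusted p = 1.25e-08, SE 0.05). In cultures 7 of 16 were higher and 5 lower (75% called), and 1 and 2 with the trend removed (18.8%). As deposited, the lower count was 2 without control replicate 1 or mLJZD replicate 2 and 3 without mLJZD replicate 1. In tumours without mLJZD replicate 1, the carrier, glutathione and sensing lists had 0, 0 and 1 genes higher and 1, 0 and 0 lower. Without mLJZD replicate 2, 1 carrier gene was higher and 3 lower, no glutathione gene was higher, and no sensing gene was lower. The glutathione list also had 0 higher without saline replicate 1.

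The profiles of the members over the 8 libraries were set against 9246 other protein-coding genes whose mean was 10 CPM or more, by Pearson's r of log2 CPM and as a description only. The libraries share their tumour or culture origin, and the levels of 9 members, all but Slc7a1, lay apart between the 4 tumour and the 4 culture libraries. How much of each r comes from that split was not computed. Slc7a5 was most like Aars (r = 0.999), a gene of the tRNA synthetase list. Psat1 was most like Gpnmb, Gpt2 and Aldh18a1 (r = 0.999 each), of which the last pair belong to the asparagine, proline and glutamine list. Slc3a2 was most like Pxdc1, Ldha and Ssu72 (r = 0.997 to 0.998), and Mthfd2 like Slc25a33, Zfp703 and Pdk3 (r = 0.997 to 0.998). For Phgdh the nearest were Rrp9, Nubp2 and Timm44 (r = 0.9987 to 0.9995) and for Shmt2 Aaas, Taldo1 and Rbpms2 (r = 0.999), while Rnf126 and Enkd1 were among the nearest for Slc1a5 (r = 0.998 each). Ktn1 and Mdfic were among the nearest for Slc7a1 (r = 0.995 and 0.986). Slc38a2 was most like Ipo8, Tmtc3 and Atf7 (r = 0.997 to 0.998) and Slc7a11 like Loxl4, Mios and Riok1 (r = 0.991 to 0.994).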

How the data were processed

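RNA was sequenced from 8 libraries. The authors deposited raw counts per gene as a single table. The submitters' processing notes name build GRCm39, featureCounts 2.0.3, SAMtools 1.14, HISAT2 2.2.1, FastQC 0.12.1 and Trim Galore. The annotation release, strand setting and handling of reads with several matches were not given, so reads shared with processed pseudogenes are uncertain. Symbols, transcript lengths and GC content came by identifier from GENCODE M21, which named 52029 of 56953 identifiers. Levels are CPM. Genes were tested with edgeR 4.0.16 (R 4.3.3; quasi-likelihood F test, two-sided, TMM, filterByExpr, Benjamini-Hochberg over all genes tested, called under 0.05), separately for tumours, cultures and controls with 4 libraries each, and over all 8 for the interaction. The SE is the log2 fold change over the square root of F. The trend was removed by natural splines with 6 degrees of freedom each for log2 length and GC, used as offsets with TMM recomputed. The code was tested on simulated data. Members and lists were chosen with earlier results of these data known. Up to 4 called genes per list with 1 CPM or more were eligible by largest fold change; some genes these rules select are not reported here. ATF4 genes comprised 26 identifiers, with 2 for Ddit3, of which 1 was tested. Alternatives included DESeq2 1.42.0, other scalings, no filter, a replicate block and leaving out each library. Those run on top of the trend removal were added after seeing the data.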

Additional observations from a re-analysis of the deposited data

Results flagged for a closer look

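The fold change under mLJZD differed between tumours and cultures, by an edgeR interaction test over the 8 libraries, for 8 members on the counts as deposited. The same test called 44.4% of 16090 genes, and 32.8% with the length and GC trend removed. The difference, tumour minus culture on the log2 scale, was 1.20 for Slc3a2, 0.93 for Mthfd2, 0.64 for Phgdh, 0.55 for Slc7a5, 0.45 for Slc1a5, 0.35 for Shmt2, -0.43 for Slc38a2 and -0.47 for Slc7a1. With the length and GC trend removed it passed for 6 members, at 1.01 for Slc3a2, 0.76 for Slc7a11, 0.67 for Mthfd2, 0.42 for Slc7a5, 0.21 for Slc7a1 and 0.19 for Slc38a2. Of these, the calls of Slc7a11, Slc7a1 and Slc38a2 did not all hold under the alternatives run on top of the trend removal. Slc3a2, Mthfd2 and Slc7a5 passed in the same direction both ways, while Slc7a1 and Slc38a2 changed sign. Tumours and cultures also differed in the form of treatment, its control and the cells they held, and these cannot be told apart here.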

How the results depend on the processing

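Log2 fold changes are given unless stated. In tumours, the rises of Slc3a2, Slc7a5, Slc7a1 and Mthfd2 passed under every alternative tried. The count of members called lower in tumours was 0 with the trend removed, with a replicate block, with both, with all 8 libraries in one fit and without any 1 library. The count of all genes called in tumours was 1087 without mLJZD replicate 1 and 1974 without replicate 2, and up to 3536 without a saline replicate, beside 4835. Phgdh in tumours was never called. It was 0.00154 with the trend removed, 0.00187 with the replicate block as well, and -0.0599 to 0.0213 when 1 library was left out. After trend removal, Phgdh ran from -0.0441 to 0.0355 when 1 library was left out and was -0.00202 with libraries scaled at the median gene, and Slc38a2 was 0.00523 with libraries scaled at the mean of genes.

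In cultures, 4874 genes were called with the trend removed and 4909 with the replicate block as well, beside 7365. Slc7a11 and Slc38a2 turned to -0.27 and -0.21 with the trend removed, and to -0.28 and -0.21 with the replicate block as well. Upper-quartile scaling turned Slc7a5 to -0.0182 and Psat1 to -0.0291. After trend removal and with 1 library left out, Phgdh ran from -0.246 to 0.0277 and Shmt2 from -0.0636 to 0.00378. Shmt2 was then 0.0561 scaled at the median gene and 0.0157 scaled at the mean of genes, and Slc1a5 was 0.000501 scaled at the median gene.

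Between controls, the count of members higher was 0 with the trend removed, 0 with the replicate block as well, and 1 to 2 when 1 library was left out. Slc7a1 turned to -0.51 both ways. After trend removal Slc38a2 ran from -0.000702 to 0.0714 when 1 library was left out, and was -0.0136 scaled at the median gene and -0.32 scaled at the mean of genes. In the interaction, 0 members were lower with the trend removed and 0 with the block as well. Slc7a11, Slc7a1, Slc38a2 and Shmt2 then had 0.76, 0.21, 0.19 and -0.0584, and 0.76, 0.21, 0.19 and -0.0578 with the block. The cause of these changes was not tested.

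Same-numbered libraries did not deviate together (correlations of -0.0789, 0.0158 and -0.0134 over 16090 genes). The replicate block alone ended 1 member call, that of Shmt2 in tumours (adjusted p = 0.0979 with edgeR). The fitted changes of Slc1a5, Slc38a2 and Phgdh in tumours, 0.04, -0.03 and -0.02, were no larger than their SEs of 0.05, 0.04 and 0.05 in this fit of 2 libraries a group.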
